A study of Mus musculus with 12 samples.

Results

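The genes that carry fatty acids across the plasma membrane and through the cytosol were examined in mouse liver and in RAW264.7 cells, a mouse macrophage line, each with and without esculetin, a coumarin compound. The set comprised the 9 genes *Fabp1*, *Fabp2*, *Fabp4*, *Fabp5*, *Fabp7*, *Slc27a1*, *Slc27a2*, *Slc27a3* and *Slc27a4*, given as a list of symbols, and all 9 were listed among the 55357 gene identifiers of both raw count tables. The liver groups were wild-type male C57BL6/J mice aged 8-9 weeks that were gavaged for 7 days. They received 2.5% Tween-80 (control, n = 3) or esculetin at 90 mg/kg/d (n = 3), which the methods give as dissolved in 2.5% Tween-80. Both groups ate a control diet (10% of kcal from fat) for 4 days, then HFD, a high-fat diet (60%), for the last 3 days. Each liver library pooled a pair of mice, as the methods give it. The RAW264.7 groups received 25 µg/mL DiI-labelled ox-LDL (oxidized low-density lipoprotein) for 24 h, with DMSO (control, n = 3) or 40 µg/mL esculetin (n = 3). The methods give DMSO as the solvent of esculetin for cells. RAW264.7 is 1 transformed line, and groups without HFD or without ox-LDL were not analysed here, so each comparison is of esculetin on top of a lipid load.

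Fatty acid-binding proteins (FABPs) are small cytosolic proteins that hold a long-chain fatty acid in a barrel-shaped pocket and deliver it to membranes, enzymes and nuclear receptors. Each tissue uses its own members: *Fabp1* is the liver form, *Fabp2* the intestinal form, *Fabp4* the adipocyte form, *Fabp5* the epidermal form and *Fabp7* the brain form, and macrophages use *Fabp4* and *Fabp5*. The *Slc27a* genes encode the fatty acid transport proteins FATP1 to FATP4, membrane proteins that promote fatty acid uptake and, as acyl-CoA synthetases, couple the incoming acid to coenzyme A.

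Library totals were 14659876-20346460 counts in liver and 13752842-20001959 counts in cells. Levels are given as CPM, the counts per library scaled to a common total with TMM factors, which correct for differences in composition between libraries. Differences are log2 fold changes of esculetin over control from edgeR's quasi-likelihood test, with p-values adjusted over all tested genes, and calls were made where this adjusted p was under 0.05. The labels do not say whether replicates were separate cultures, so p-values measure the spread between these samples. One liver library, control replicate 1, stood apart from the other 5 on the first principal component (-47.9 against -3.44 to 19.4), and the liver log2 fold change of each tested gene is given with and without it. The summed hepatocyte markers (*Alb*, *Ttr* and others) did not exceed 2.38 CPM in any cell library, and all 8 macrophage markers passed the count filter in cells. These 8 summed to 2288-2450 CPM in control cells and 5172-7905 CPM with esculetin. Of them 5 were called higher and none lower, beside 28.7% higher and 29.0% lower over all genes tested in cells. The part of these markers in the cell results was not tested.

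The genes lie at separate loci (GRCm39). *Fabp1* (ENSMUSG00000054422) is at chr6:71176809-71182016, *Fabp2* (ENSMUSG00000023057) at chr3:122688721-122693155, *Fabp4* (ENSMUSG00000062515) at chr3:10268785-10273737, *Fabp5* (ENSMUSG00000027533) at chr3:10077602-10081674 and *Fabp7* (ENSMUSG00000019874) at chr10:57660956-57664554. *Slc27a1* (ENSMUSG00000031808) is at chr8:72021095-72041866, *Slc27a2* (ENSMUSG00000027359) at chr2:126394327-126430166, *Slc27a3* (ENSMUSG00000027932) at chr3:90291676-90297320 and *Slc27a4* (ENSMUSG00000059316) at chr2:29692598-29710004. Coding sequences of the 5 *Fabp* genes were 42.5%-62.0% identical to each other, with gaps counted against identity and *Fabp4* and *Fabp5* the closest pair. Pairs with *Fabp7* were the lowest (42.5%-47.2%), and its canonical coding sequence has 564 bases against 381-405 in the others. Coding sequences of the 4 *Slc27a* genes were 53.5%-66.4% identical, with *Slc27a1* and *Slc27a4* the closest pair. No member was therefore a near-identical copy of another member, but *Fabp5* has near-identical copies elsewhere, described with its counts.

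Promoters are shown for the genes with the highest level of each family in liver, *Fabp1* and *Slc27a2*, and for *Slc27a4* and *Slc27a3*, which moved in opposite directions in cells. Each is the stretch of 250 bases before the transcription start from RefSeq (GRCm38.p6), read 5' to 3' on the gene's strand. Capitals mark matches on either strand to 6 searched motifs: the GC box GGGCGG, the CCAAT box, the TATA box TATAAA, the nuclear receptor half-site AGGTCA, the C/EBP motif TTGCNNAA and the E-box CACGTG. The lines are *Fabp1* at chr6:71199629-71199878 on the plus strand, *Slc27a2* at chr2:126552774-126553023 on the plus strand, *Slc27a4* at chr2:29802384-29802633 on the plus strand and *Slc27a3* at chr3:90389939-90390188 on the minus strand.
Fabp1: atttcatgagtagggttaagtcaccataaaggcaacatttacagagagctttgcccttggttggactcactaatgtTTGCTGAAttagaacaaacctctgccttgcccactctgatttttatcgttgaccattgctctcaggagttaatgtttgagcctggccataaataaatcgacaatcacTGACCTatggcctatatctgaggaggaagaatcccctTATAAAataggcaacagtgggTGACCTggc
Slc27a2: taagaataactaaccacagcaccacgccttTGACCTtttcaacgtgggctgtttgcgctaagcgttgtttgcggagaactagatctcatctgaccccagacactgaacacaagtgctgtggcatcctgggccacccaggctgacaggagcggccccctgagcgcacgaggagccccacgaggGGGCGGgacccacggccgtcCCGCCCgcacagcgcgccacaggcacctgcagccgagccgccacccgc
Slc27a4: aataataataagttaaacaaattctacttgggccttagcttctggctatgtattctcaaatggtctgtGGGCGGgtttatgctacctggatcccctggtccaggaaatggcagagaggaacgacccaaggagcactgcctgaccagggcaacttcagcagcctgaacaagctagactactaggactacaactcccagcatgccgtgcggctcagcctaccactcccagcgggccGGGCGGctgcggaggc
Slc27a3: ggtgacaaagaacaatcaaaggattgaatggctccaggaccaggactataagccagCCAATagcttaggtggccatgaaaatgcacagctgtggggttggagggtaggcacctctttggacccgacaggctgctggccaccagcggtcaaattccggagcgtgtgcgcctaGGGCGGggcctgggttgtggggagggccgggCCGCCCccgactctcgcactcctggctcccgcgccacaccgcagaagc
The *Fabp1* window held 1 TATA box, 2 half-sites (written here as TGACCT, the other strand) and 1 C/EBP motif, and no GC box. The *Slc27a4* window held 2 GC boxes and none of the other 5 motifs. The *Slc27a2* window held 2 GC boxes and 1 half-site, and the *Slc27a3* window 2 GC boxes and 1 CCAAT box. Over all 32851 promoters of this length, 32.7% held a GC box, 33.8% a CCAAT box, 12.4% a TATA box, 14.0% a half-site, 9.56% a C/EBP motif and 6.02% an E-box. *Fabp2* and *Fabp1* were the genes with a C/EBP motif among the 7 found in the table. *Slc27a1* has 3 listed starts, and *Fabp4* and *Fabp5* had no entry. A match is a description of the letters, not of binding.

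In cells, esculetin moved the *Slc27a* genes and the *Fabp* genes each in both directions. *Slc27a1*, *Slc27a4* and *Fabp4* rose, and *Fabp5* and *Slc27a3* fell. These were all 5 of the genes with enough counts to be tested (5 of 5 called), where 57.7% of the 13277 tested genes were called, 28.7% higher and 29.0% lower. The control and esculetin libraries did not overlap for any of the 5, which held for 64.1% of all tested genes. The median log2 fold change of the 5 was 1.01, against -0.0135 over all tested genes. *Fabp4* passed the count filter through its esculetin libraries alone, so it gives no support to these counts or to the median. *Slc27a4* and *Fabp4* were singled out by the study in these same samples, so their direction here is not independent evidence.

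**Figure D1:**
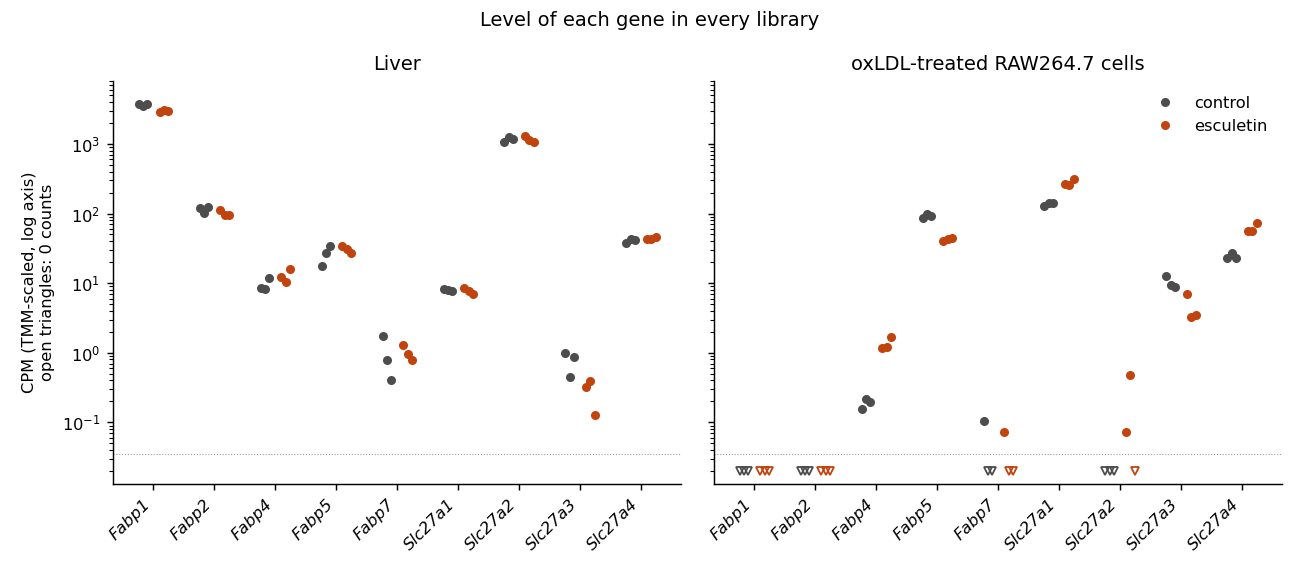
Level of each of the 9 genes in every library, in CPM on a log axis, in liver (left) and in ox-LDL-treated RAW264.7 cells (right). Points are single libraries, grey for control and orange for esculetin, and open triangles mark libraries with 0 counts. The cell groups separate for *Fabp4*, *Fabp5*, *Slc27a1*, *Slc27a3* and *Slc27a4*, and among the tested liver genes the groups separate for *Fabp1*.

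*Slc27a1* encodes FATP1, the form known from muscle and adipose tissue. Its level was 130.2, 141 and 144 CPM in the control cells and 261, 259 and 314 CPM with esculetin. The lowest treated library was above the highest control, and the mean rose from 138 ± 7.19 to 278 ± 30.7 CPM (SD, n = 3 each), which is 1.01 on the log2 scale (SE 0.096, edgeR adjusted p = 6.55e-06). The 95% interval of the fold ran from 1.74 to 2.33.

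*Slc27a4* encodes FATP4, a widely expressed form that handles long and very long chains. Its level was 23.3, 27.3 and 23.0 CPM in control cells and 55.7, 55.5 and 73.4 CPM with esculetin, from raw counts of 450, 508 and 472 against 761, 814 and 1316. All 3 treated libraries were above all controls, and the log2 fold change was 1.33 (SE 0.13, edgeR adjusted p = 8.79e-06), with a 95% interval of 1.04 to 1.62. Strandedness is not given, so reads of the overlapping antisense gene *Gm75196* cannot be told apart from those of *Slc27a4*. Esculetin replicate 3 was the highest library for *Slc27a1*, *Slc27a4* and *Fabp4* alike; the calls held when it was left out.

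*Slc27a3* encodes FATP3, which is better known for its acyl-CoA synthetase activity than for uptake. Its level was 12.5, 9.47 and 8.80 CPM in control cells and 6.88, 3.27 and 3.51 CPM with esculetin. Treated replicate 1 lay about midway between the other treated libraries and the controls. The log2 fold change was -1.18 (SE 0.27, edgeR adjusted p = 0.00276), so this FATP fell while the other 2 detected FATPs rose.

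*Slc27a2* encodes FATP2, the main hepatic form, and was barely counted in cells, with 0, 0 and 0 counts in controls and 1, 7 and 0 with esculetin. It was not tested.

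*Fabp5* was the main FABP of the cells. Its level was 86.7, 97.1 and 90.8 CPM in control cells and 39.8, 43.7 and 45.1 CPM with esculetin. The groups were far apart relative to their spread, 91.6 ± 5.25 against 42.9 ± 2.72 CPM, and the log2 fold change was -1.09 (SE 0.09, edgeR adjusted p = 2.44e-06). The fold was 0.468, with a 95% interval of 0.408 to 0.537.

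*Fabp4*, whose protein is a marker of adipocytes and of lipid-loaded macrophages, was near the detection limit in control cells. It had 3, 4 and 4 counts in the controls and 16, 18 and 30 with esculetin, which is 0.156, 0.215 and 0.195 CPM against 1.17, 1.23 and 1.67 CPM. No library overlapped, and the log2 fold change was 2.81 (SE 0.45, edgeR adjusted p = 0.000284). *Fabp4* passed the count filter through its esculetin libraries alone, so this call and the separation of the groups are not independent of its rise. Because the controls held so few counts, the fold of 7.03 is loosely fixed, with a 95% interval of 3.53 to 14.0. The 7 adipocyte markers summed to 0.778-3.01 CPM in control cells. The 1 of them that could be tested, *Retn*, had 52, 27 and 14 counts in controls and 0, 0 and 2 with esculetin. *Retn* passed the count filter through its control libraries, so its fall does not stand for the list.

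*Fabp1* and *Fabp2* had 0 counts in all 6 cell libraries, which allows a level of up to 0.150-0.218 CPM (3 counts of each library's total, counting error only). *Fabp7* had 2, 0 and 0 counts in controls and 1, 0 and 0 with esculetin. The liver, intestinal and brain FABPs were thus not detectable or at single counts at this depth.

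Levels of different genes can be compared per length, here CPM per kb of the canonical transcript. In control cells the order was *Fabp5* (92.2), *Slc27a1* (25.8), *Slc27a4* (3.76), *Slc27a3* (3.19) and *Fabp4* (0.139), where *Slc27a4* and *Slc27a3* overlapped between libraries. With esculetin the order was *Slc27a1* (51.8), *Fabp5* (43.2), *Slc27a4* (9.42), *Slc27a3* (1.42) and *Fabp4* (0.998), where *Slc27a3* and *Fabp4* overlapped. The level of *Fabp5* was 3.41 to 3.72 times that of *Slc27a1* in the control libraries and 0.777 to 0.910 times with esculetin. With merged exons of all transcripts as the length, the ratios were 1.76 to 1.91 in control and 0.399 to 0.468 in esculetin libraries. *Fabp5* also stood 618 to 764 times above *Fabp4* per kb in controls and 36.9 to 48.8 times with esculetin, so *Fabp4* remained a small part of the summed FABP transcript after its rise.

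**Figure D2:**
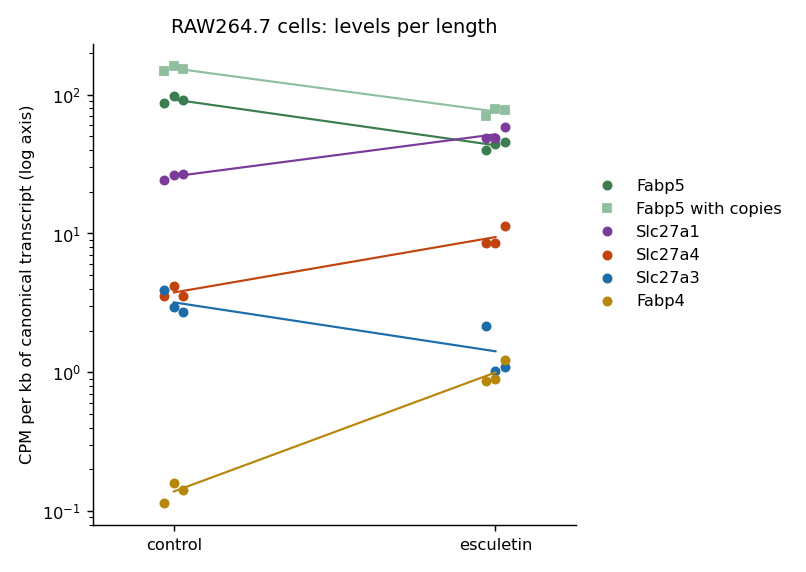
Level per length in RAW264.7 cells for the 5 detected genes, in CPM per kb of canonical transcript on a log axis; points are libraries and lines join the means of control and esculetin (n = 3 each). *Fabp5* and *Slc27a1* change places, except where counts at the near-identical copies of *Fabp5* are added (squares), and *Fabp4* stays lowest by its mean.

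The *Fabp5* level depends on where reads were placed. 5 processed pseudogenes match its transcript at 90% identity or more over at least 300 bases, the closest being *Gm6166* on chromosome 9, 98.3% identical over 409 bases. In cells *Gm6166* itself held 1026, 993 and 1100 counts in controls and 354, 456 and 520 with esculetin, against 1673, 1806 and 1867 and 544, 641 and 808 at *Fabp5*. The copies held 39.3%-41.4% of the counts at *Fabp5* and its copies in control cells and 41.9%-44.3% with esculetin, but 1.03%-1.79% in control and 0%-0.844% in esculetin livers. The copies were thus counted in number in cells and almost not at all in liver. How reads matching several loci were treated is not given in the sources used here, so reads at *Fabp5* and at *Gm6166* are uncertain as to origin.

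Summing *Fabp5* with its copies left the value in cells at -1.03 on the log2 scale (edgeR adjusted p = 2.52e-06), and *Gm6166* alone fell by 0.90 (SE 0.10, edgeR adjusted p = 2.08e-05). The order of levels did change: with the copies added, *Fabp5* stood at 155 CPM per kb in control and 75.6 in esculetin cells, 1.34 to 1.63 times *Slc27a1* with esculetin, and the 2 genes no longer changed places.

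**Figure D3:**
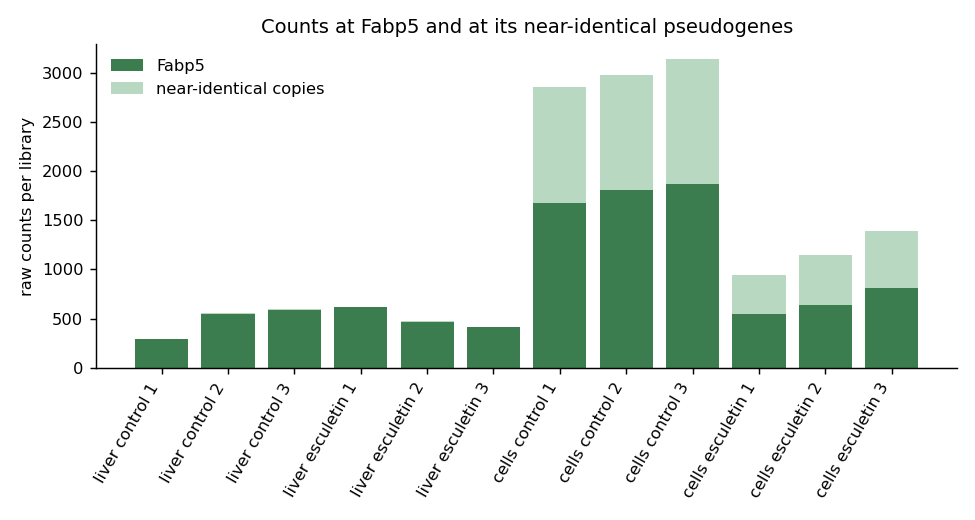
Raw counts at *Fabp5* (dark) and summed over its 5 near-identical pseudogenes (light) in each of the 12 libraries. The light part is 39.3%-44.3% of the bar in the cell libraries and at most 1.79% in the liver libraries.

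In liver, none of the genes passed the test. The edgeR fit called 0 of the 8 tested genes, where 0.0859% of the 12813 tested genes (11) were called; DESeq2 and limma-voom also called 0. At an unadjusted p under 0.05 edgeR gave 1 of 8, *Fabp1*, against 8.37% of all genes. Values were higher with esculetin for 5 and lower for 3, and their median log2 fold change was 0.0566, against -0.0201 over all tested genes. In whole liver, fewer cells of a type and less RNA per cell cannot be told apart.

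*Fabp1*, one of the most abundant cytosolic proteins of hepatocytes, had the highest level per length of the 9, 6564 CPM per kb in control livers. Its level was 3790.4, 3517 and 3800.2 CPM in control and 2868, 3026 and 2931 CPM in esculetin livers. The groups did not overlap, as for 14.5% of all tested genes, and the means were 3702 ± 161 and 2942 ± 79.3 CPM. The log2 fold change was -0.33 (SE 0.13, 95% interval -0.61 to -0.053), and it did not pass (edgeR adjusted p = 0.517). Without control replicate 1 it was -0.31 (edgeR adjusted p = 0.312).

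*Slc27a2*, the second highest per length at 399 CPM per kb, was 1061, 1269 and 1164 CPM in control and 1315, 1149 and 1081 CPM in esculetin livers. The ranges overlapped almost wholly, and the log2 fold change of 0.021 (SE 0.13) had an interval of -0.27 to 0.31; without control replicate 1 it was -0.038. *Slc27a4* was 37.2, 43.7 and 41.5 CPM in control and 43.6, 42.7 and 45.6 CPM in esculetin livers, and its log2 difference of 0.11 had an interval of -0.15 to 0.36 and was 0.049 without control replicate 1. Neither gene's groups separated. *Slc27a1* was 8.23, 7.99 and 7.75 CPM against 8.61, 7.73 and 7.05 CPM, and its log2 difference of -0.034 had an interval of -0.40 to 0.34 and was -0.0077 without control replicate 1.

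*Slc27a3* was too low to be tested in liver. It had 16, 9 and 15 counts in control and 6, 6 and 2 in esculetin livers. The groups did not overlap, as for 14.5% of all tested genes, but the nearest libraries were 0.444 CPM (control) and 0.390 CPM (esculetin). Without the filter on low counts the log2 fold change was -1.41 (edgeR adjusted p = 0.503).

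*Fabp2* was 119, 100.7 and 126 CPM in control and 112, 96.6 and 94.7 CPM in esculetin livers, with a log2 fold change of -0.19 (edgeR adjusted p = 0.709), or -0.16 without control replicate 1. Of the 7 enterocyte markers, 4 (*Sis*, *Alpi*, *Cdx1* and *Cdx2*) were at 0 in every liver library, and the summed list was 387-839 CPM in control and 295-389 CPM in esculetin livers, nearly all of it *Apoa4*, which liver also expresses. *Fabp7* had 28, 16 and 7 counts in control and 24, 15 and 12 in esculetin livers, and its log2 fold change of 0.092 had a wide interval, -0.99 to 1.17; without control replicate 1 it was 0.75.

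*Fabp4* was 8.48, 8.19 and 11.8 CPM in control and 12.2, 10.5 and 15.8 CPM in esculetin livers. The highest control lay inside the esculetin range, and the value of 0.44 on the log2 scale (SE 0.20, edgeR adjusted p = 0.599) was not called. It was 0.37 without control replicate 1 and ranged from 0.25 without esculetin replicate 3 to 0.61 without control replicate 3. *Fabp4* was highest in esculetin replicates 1 and 3, and so were 5 of the 7 adipocyte markers (*Adipoq*, *Plin1*, *Lep*, *Cfd* and *Retn*) but not *Cidec* or *Car3*. *Adipoq* had 0, 5 and 3 counts in control and 25, 4 and 58 in esculetin libraries, and *Plin1* 0, 7 and 0 against 14, 2 and 41. *Retn* had 0, 3 and 0 against 9, 0 and 27, and *Lep* was at single counts, 0, 0 and 1 against 2, 0 and 3. Of these 5, *Cfd* alone passed the count filter. All 7 together summed to 1947-2799 CPM in control and 1970-2148 CPM in esculetin livers, of which *Car3*, also made by hepatocytes, was the most and was highest in control replicates 1 and 2. The other 6 summed to 11.7, 22.9 and 38.7 CPM against 53.1, 12.5 and 49.1 CPM. No marker was at 0 in all 6 libraries, and 0 of the 3 tested were called. Their part in the *Fabp4* value was not tested. Endothelial markers, the other cell type in which *Fabp4* is well known, summed to 123-130 CPM in control and 115-121 CPM in esculetin livers.

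*Fabp5* was 17.8, 27.1 and 34.3 CPM in control and 33.6, 30.5 and 26.7 CPM in esculetin livers. The lowest library was control replicate 1, the one that stood apart. The log2 fold change was 0.20 (edgeR adjusted p = 0.814) with it and -0.012 (edgeR adjusted p = 0.991) without it.

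Per length, control livers ordered as *Fabp1*, *Slc27a2*, *Fabp2* (119 CPM per kb), *Fabp5* (26.6), *Fabp4* (6.98), *Slc27a4* (6.25), *Slc27a1* (1.49), *Fabp7* (1.03) and *Slc27a3* (0.239). Neighbours overlapped between libraries for *Fabp4* and *Slc27a4* and for *Slc27a1* and *Fabp7*. With merged exons of all transcripts as the length, *Slc27a4* stood above *Fabp4*.

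The responses differed between cells and liver. 4 of the genes were tested in both tables, and the difference of the effects, cells minus liver, passed for all 4, where 41.7% of the 10449 genes tested in both passed. In cells *Fabp4* was tested only through its esculetin libraries, where it was high. In one model of the 12 libraries the difference was 2.31 for *Fabp4* (SE 0.45, edgeR adjusted p = 0.000949) and -1.35 for *Fabp5* (SE 0.24, edgeR adjusted p = 0.00045). It was 0.98 for *Slc27a1* (SE 0.16, edgeR adjusted p = 0.000211) and 1.16 for *Slc27a4* (SE 0.17, edgeR adjusted p = 9.43e-05). Tissue, dose, route and duration all differ between the systems and cannot be told apart.

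**Figure D4:**
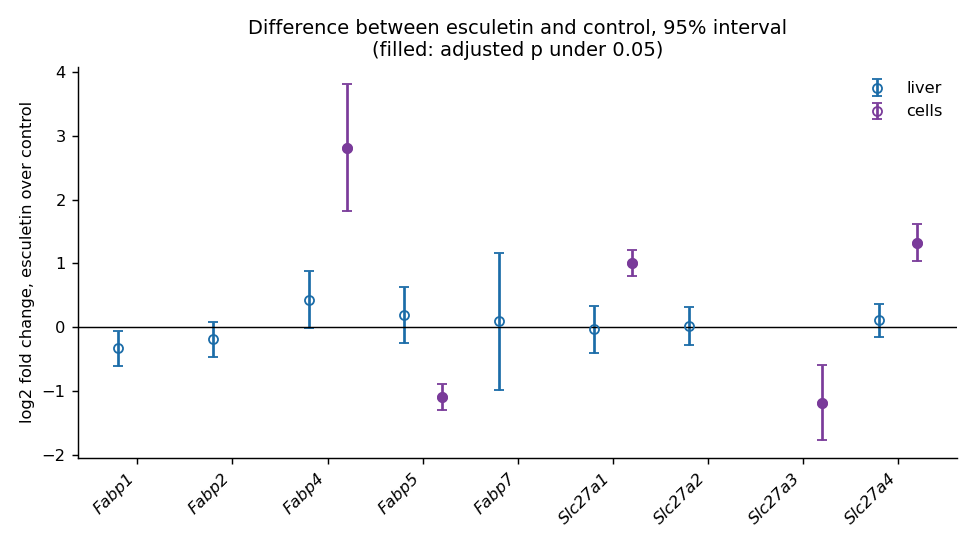
Log2 fold change of esculetin over control with its 95% interval for each tested gene, in liver (blue) and RAW264.7 cells (purple); filled points passed at an adjusted p under 0.05. All 5 cell values are filled and all 8 liver values are open.

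Genes that work next to the FABPs and FATPs were taken from a list of 45: other family members, other uptake proteins, long-chain acyl-CoA synthetases, acyl-CoA-binding proteins, and PPARs with partner factors. In cells 26 were tested and 20 called (8 higher, 12 lower), where 57.7% of all tested genes passed, 28.7% higher and 29.0% lower. Their median log2 fold change was -0.30, against -0.0135 over all tested genes. None of the 10 other lipid-binding relatives of the FABPs and neither remaining FATP, *Slc27a5* and *Slc27a6*, had enough counts in cells to be tested.

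The other uptake proteins also split. *Cd36*, the scavenger receptor that takes up fatty acids and ox-LDL, rose by 1.23 on the log2 scale (SE 0.19, edgeR adjusted p = 0.000246), from 3.89, 3.23 and 4.48 to 10.5, 9.13 and 7.75 CPM. The study reported a rise of *Cd36* by qRT-PCR in ox-LDL-treated RAW264.7 cells and named it in these same samples. Its direction in these libraries is therefore not independent evidence. *Lpl*, the lipase that frees fatty acids from triglyceride, was the highest of all these genes per length and rose by 0.53. *Scarb1*, the HDL receptor SR-BI, fell by 1.01 on the log2 scale from 296, 322 and 320.4 to 152, 163 and 151 CPM. *Got2*, a mitochondrial aminotransferase also described as a membrane fatty acid-binding protein, fell by 0.96. Of the 7 tested in this group, 3 rose, 2 fell and 2 did not pass, beside 28.7% higher and 29.0% lower over all tested genes. *Lpl* (314), *Got2* (135), *Dbi* (107), *Scarb1* (92.3) and *Scp2* (73.7) stood above *Fabp5* (67.7) in mean CPM per kb over the 6 cell libraries. With its near-identical copies added *Fabp5* stood at 115, below *Lpl* and *Got2* but above the other 3, and in control cells alone *Scp2* (84.0) was below *Fabp5* (92.2).

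All 5 tested acyl-CoA synthetases were called, beside the 57.7% of all genes. *Acsbg1* rose by 2.60 on the log2 scale, *Acsl4*, which prefers arachidonic acid, by 0.98 and *Acsl3*, an enzyme of lipid droplets, by 0.46, whereas *Acsl5* fell by 0.89 and *Acsl1* by 0.40. Of the 6 acyl-CoA-binding genes tested, 4 were called lower, 1 was called higher and 1 was not called. Over all tested genes, 29.0% were called lower and 28.7% higher. *Dbi*, the acyl-CoA-binding protein itself, fell by 0.70, *Acbd6* by 0.87 and *Scp2*, a sterol and fatty acyl carrier, by 0.41. *Acbd3* fell too, and *Acbd5*, a peroxisomal tether, rose by 0.66.

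Among the nuclear receptors and partners, *Ppara* had 0, 0 and 2 counts in control cells and 0, 0 and 1 with esculetin, and *Pparg* 0, 0 and 0 against 2, 2 and 0. The receptors best known for controlling *Fabp1* and *Fabp4* were thus at or near 0 in these cells. Of the 8 tested, 5 were called, beside 57.7% of all tested genes. *Cebpb*, encoding C/EBPβ, rose by 1.29 on the log2 scale. The study reported a rise of *Cebpb* by qRT-PCR in ox-LDL-treated RAW264.7 cells and named it in these same samples. Its direction in these libraries is therefore not independent evidence. *Ppargc1b*, a coactivator of oxidative metabolism, fell by 1.46, and *Rxrb*, *Ppard* and *Srebf1* fell by 0.76, 0.41 and 0.31.

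**Figure D5:**
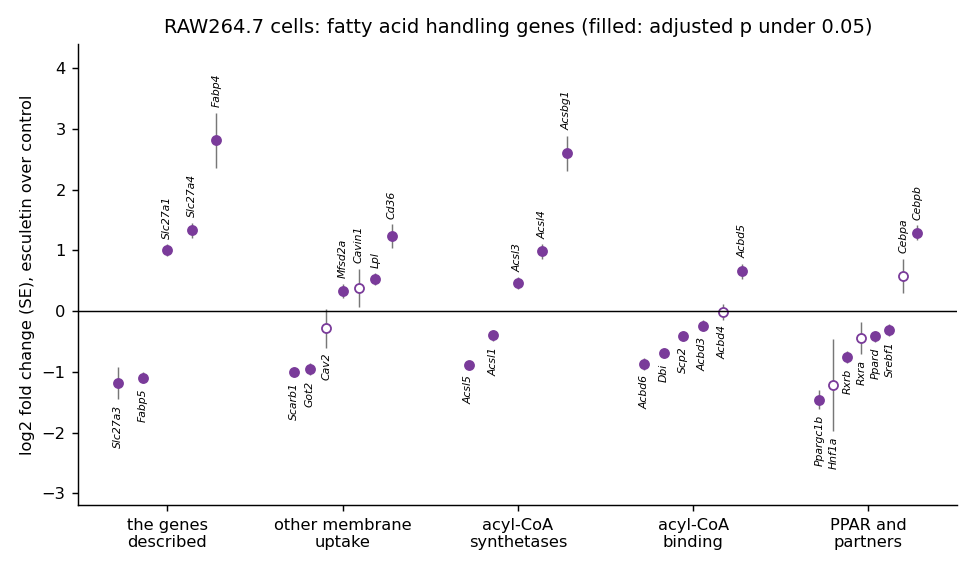
Log2 fold change of esculetin over control in RAW264.7 cells, with SE bars, for the 5 tested genes described here and 26 listed relatives, by group; filled points passed at an adjusted p under 0.05. Rises and falls occur in each group, from 2.81 for *Fabp4* to -1.46 for *Ppargc1b* among the filled points.

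In liver 0 of 33 tested relatives were called by edgeR (0.0859% over all genes). At an unadjusted p under 0.05 edgeR gave 5 of 33 (*Scarb1*, *Acsl3*, *Acsl5*, *Ppargc1b* and *Cebpb*), beside 8.37% of all genes. DESeq2 called 1, *Cebpb*, whose edgeR log2 fold change was 0.71 (edgeR adjusted p = 0.209). *Slc27a5*, the bile acid and fatty acid ligase of hepatocytes, was 889, 1308 and 1155 CPM in control and 1220, 1181 and 1160 CPM in esculetin livers, and did not pass.

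Over the 12 libraries, the pattern of log2 CPM was compared with 15709 genes as a description, since the points share libraries and fall into liver and cells. *Fabp1* was most like *Ttr*, *Pxdc1* and *Hsd17b13*, *Fabp2* like *Aldh1a7*, *Ttpa* and *Fabp1*, and *Slc27a2* like *Serping1*, *Ddah1* and *AW112010*, but each had 4107 to 4202 genes above a Pearson r of 0.95. *Slc27a1* was most like *Gm29340*, *Cd9* and *Gm16201*, and *Fabp4* like *Rpl7l1*, *H2bc4* and *Trp53inp2*, but they had 2045 and 2731 genes above 0.95. *Slc27a4* was most like *Smarcc2* (r = 0.994), *Fam20c* and *Pla1a*, with 329 genes above 0.95. *Fabp5* had the least common pattern of these, with 7 genes above 0.95, led by *Chchd5* (r = 0.973), *Clta* (0.970) and *Rpl11* (0.964).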

How the data were processed

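RNA-seq was available for 12 libraries in 4 groups of 3. The authors deposited raw gene counts, 1 table for liver and 1 for cells, made with HISAT2 2.2.1 and featureCounts on GRCm39 per the submitters' processing notes. Strandedness, the annotation release and the treatment of multi-mapping reads are not given in the sources used here. Reads of overlapping antisense genes therefore cannot be told apart, as for *Gm75196*, which overlaps *Slc27a4* on the other strand and was not among the counted identifiers. Identifiers were matched to GENCODE vM39; 608 of 55357 did not match and held at most 0.033% of a library's counts. No row without a gene name entered.

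Each table was fitted alone with edgeR 4.0.16 (TMM, filterByExpr, glmQLFTest, treatment only) with Benjamini-Hochberg adjustment over all tested genes, and the effects in cells and liver were compared in a 4-group model. limma 3.58.1 (voom) and DESeq2 1.42.0 were alternatives. The fits were tested on simulated data. Near-identical copies were searched with BLAST 2.17.0. Levels per kb used canonical transcripts. Depth limits detection to 0.147-0.218 CPM (3 counts). Libraries of a group differed by more than counting noise (chi-square per degree of freedom 2.93-77.5), so no library appears to have been deposited again within its own group. Pairs of libraries from different groups were not compared in this way.

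All 9 genes are named; of the relatives, those called are named with up to 4 examples per group by smallest p, besides those above the highest member per kb, and up to 3 most similar genes are given for each member of at least 10 CPM in 3 libraries. *Acbd3*, *Srebf1*, *Acsl1*, *Ppara*, *Pparg* and *Slc27a5* were named beyond this rule, after their values were seen. The members and lists were chosen with earlier results of these data known.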

Additional observations from a re-analysis of the deposited data

Results flagged for a closer look

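4 genes had effects of esculetin that differed between cells and liver by the test of the difference itself (edgeR, cells minus liver, log2): *Fabp4* by 2.31, *Fabp5* by -1.35, *Slc27a1* by 0.98 and *Slc27a4* by 1.16. For *Fabp5* the difference was -1.07 without liver control replicate 1, the library in which its level was lowest. The difference was called for these 4 in each of the 16 alternatives. For *Fabp4* this is limited, as it passed the count filter in cells through its esculetin libraries alone.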

How the results depend on the processing

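The number of the 9 genes called was 0 in liver and 5 in cells in each of 15 alternatives per table: other scalings, filters, DESeq2, limma-voom, limma-voom at an unadjusted p under 0.05 and a fold over 1.5 (the study's criterion), the replicate block, and each library left out. Left-out fits gave *Fabp4* a log2 fold change of 2.62 to 2.91 in cells and 0.25 to 0.61 in liver, and *Slc27a3* -1.59 to -1.002 in cells. Directions of small liver values were not stable: *Slc27a2* was -0.040 with library size only, and leaving out single libraries gave *Slc27a2* -0.074 to 0.087, *Slc27a1* -0.13 to 0.020, *Fabp5* -0.012 to 0.42 and *Fabp7* -0.29 to 0.75. Relatives called in liver were 0 in the main fit, 2 without the filter (*Acsl3* and *Cebpb*), 1 with DESeq2, 3 under the study's criterion and 1 with the replicate block; in cells they were 20, and 12 under the study's criterion, which adds the fold limit. All genes called in liver, 11 in the main fit, were 339 without the filter, 98 with DESeq2, 499 under the study's criterion, 123 with the replicate block, 0 with library size only and 0 to 31 with a library left out (0 without control 2, esculetin 1 or esculetin 3; 31 without control 3); in cells 5041 under the study's criterion against 7667. The causes were not tested. Replicate numbers share only a number (correlations of same-numbered deviations -0.0053 to 0.140 in liver and -0.030 to 0.165 in cells; 4 of 6 and 3 of 6 libraries were most like their own number); the block left 5 of the genes called in cells. The alternative with *Fabp5* copies, merged exon lengths and the naming of liver control replicate 1 were chosen after seeing the data. 3 libraries a group and low counts of *Fabp4* in cells and of *Fabp7* and *Slc27a3* in liver limit precision.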
